A study of Mus musculus with 74 samples.

Results

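The cytochrome P450 genes of the mouse were followed in RNA sequencing counts from the epithelium of the developing stomach and small intestine and from adult ileum. Every gene of the count table whose symbol is Cyp, a family number, a subfamily letter and a gene number was taken, which gave 93 genes of 24015, in 16 families and 38 subfamilies. Another 11 Cyp symbols of other forms (pseudogenes, letter suffixes, Cyp51) were left out. In all 31 libraries 3 of the 93 genes (Cyp2a22, Cyp2c37 and Cyp2c54) had no count, and 11 never had more than 3 counts in any library.

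The 31 libraries formed 15 groups. The wild-type (WT) embryos were of the CD1 strain and gave forestomach, hindstomach and small intestine at embryonic day 12 (E12), E14 and E16, and small intestine at E18, with 2 libraries in each group. The small intestine at E12 and E14 carries the cell type label midgut. All embryonic libraries labelled as deleted came from Cdx2f/f mice on a mixed B6;129 background, in which the gene of the intestinal transcription factor CDX2 is flanked by loxP sites. In 3 libraries the deletion is labelled E10 and was driven by Shh-Cre, which is active in the gut endoderm, with collection at E16. In 2 libraries labelled as deleted at E13 and collected at E16, and in 2 labelled as deleted at E15 and collected at E18, Villin-Cre, which is active in gut epithelium, was used with 5 mg of tamoxifen by oral gavage. Adult villi of the ileum came from Cdx2f/f;Villin-Cre mice injected with 1 mg of tamoxifen on 5 days and killed 3 days later (2 libraries), and from Cdx2f/f mice that received sunflower oil (2 libraries). Strain and genotype cannot be told apart in the embryonic comparisons with CD1. Drug and genotype cannot be told apart in the E13-labelled, E15-labelled and adult comparisons, since the adult controls received oil and the CD1 labels name no tamoxifen. The cells up to E16, and those of the deletions labelled E10 and E13, were released with trypsin and sorted for Epcam, whereas E18 and E15-labelled epithelium was stripped with EDTA, so stage and isolation cannot be told apart between E16 and E18. Library totals ran from 5970227 to 62463167 counts. Levels are given in CPM, each gene's counts as a share of the library's total, scaled by edgeR's TMM factors within the embryonic libraries or within the adult ones, and are compared between libraries and not between genes.

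Cytochrome P450 enzymes are heme proteins that insert an oxygen atom into their substrate, with electrons supplied by the reductase Por in the endoplasmic reticulum or by the ferredoxin chain in mitochondria. The Cyp1, Cyp2 and Cyp3 families are known for the metabolism of drugs, plant compounds and other foreign chemicals, which in the mature gut makes the enterocyte a first barrier for swallowed compounds. The Cyp4 and Cyp2j enzymes act mainly on fatty acids and their signalling products, and single members of other families build or break down steroids, bile acids, vitamin D and retinoic acid. Many of the drug-metabolising genes are controlled by the nuclear receptors PXR (Nr1i2) and CAR (Nr1i3), the Cyp4a genes by PPARalpha (Ppara) and Cyp1a1 by the aryl hydrocarbon receptor (Ahr).

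The promoters of 6 genes are shown because their counts went from 0 or nearly 0 to high levels in the comparisons described here. They come from RefSeq on build GRCm38.p6, which is not the build mm9 named in the submitters' processing notes, and were matched by symbol. Each holds 250 bases before and 50 bases after the annotated start, read 5′ to 3′ on the gene's strand, and 72 of the 93 genes had such an entry, with 82 promoters in all. Cyp3a11 lies at chr5:145879805-145880104 on the minus strand and Cyp3a25 at chr5:146009569-146009868 on the minus strand. For both, capitals mark the hexamer AGGTCA (or its complement on the other strand), the half-site letters bound by many nuclear receptors.
Cyp3a11: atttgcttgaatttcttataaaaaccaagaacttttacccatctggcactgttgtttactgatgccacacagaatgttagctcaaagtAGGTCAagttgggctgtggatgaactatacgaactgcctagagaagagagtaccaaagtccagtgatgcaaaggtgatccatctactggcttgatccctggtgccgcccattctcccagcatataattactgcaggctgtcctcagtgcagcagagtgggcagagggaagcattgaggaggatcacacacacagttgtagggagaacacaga
Cyp3a25: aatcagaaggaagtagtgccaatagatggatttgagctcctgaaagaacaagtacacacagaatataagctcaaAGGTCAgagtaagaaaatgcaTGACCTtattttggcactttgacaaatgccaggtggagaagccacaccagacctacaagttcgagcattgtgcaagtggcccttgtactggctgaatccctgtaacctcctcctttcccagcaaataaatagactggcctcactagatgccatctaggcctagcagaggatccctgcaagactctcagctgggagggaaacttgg
Cyp2b10 lies at chr7:25897408-25897707 on the plus strand, with capitals on TTTATG or its complement, the letters of a CDX site.
Cyp2b10: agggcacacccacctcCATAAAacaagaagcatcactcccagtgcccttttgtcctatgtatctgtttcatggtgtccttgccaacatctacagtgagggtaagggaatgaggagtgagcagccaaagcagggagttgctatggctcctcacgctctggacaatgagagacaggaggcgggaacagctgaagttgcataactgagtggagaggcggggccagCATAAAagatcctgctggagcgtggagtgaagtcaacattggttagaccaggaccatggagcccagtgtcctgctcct
Cyp2d9 lies at chr15:82452127-82452426 on the plus strand and Cyp2d10 at chr15:82407145-82407444 on the minus strand, with capitals on TATAAA or its complement.
Cyp2d9: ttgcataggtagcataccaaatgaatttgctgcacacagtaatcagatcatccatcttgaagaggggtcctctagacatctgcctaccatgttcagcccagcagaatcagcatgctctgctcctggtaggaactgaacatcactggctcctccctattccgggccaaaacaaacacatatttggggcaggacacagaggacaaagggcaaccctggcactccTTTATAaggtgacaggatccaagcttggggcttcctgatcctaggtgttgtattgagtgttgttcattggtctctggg
Cyp2d10: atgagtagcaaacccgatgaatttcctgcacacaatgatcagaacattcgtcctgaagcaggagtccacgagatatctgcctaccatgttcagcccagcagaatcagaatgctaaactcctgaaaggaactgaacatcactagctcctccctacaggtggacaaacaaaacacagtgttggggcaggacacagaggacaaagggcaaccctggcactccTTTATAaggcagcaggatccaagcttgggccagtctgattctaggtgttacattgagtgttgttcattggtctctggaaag
Cyp1a1 lies at chr9:57697363-57697662 on the plus strand, with capitals on GCGTG, the core letters of the aryl hydrocarbon response element.
Cyp1a1: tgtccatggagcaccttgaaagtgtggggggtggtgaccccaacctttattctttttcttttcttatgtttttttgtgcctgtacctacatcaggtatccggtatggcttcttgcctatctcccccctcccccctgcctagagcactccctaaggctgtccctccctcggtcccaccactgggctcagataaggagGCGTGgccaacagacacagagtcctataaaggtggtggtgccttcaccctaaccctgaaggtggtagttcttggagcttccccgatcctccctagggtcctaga
Searched on both strands, AGGTCA was found in 26.8% of the 82 P450 promoters and in 16.3% of all 32851 promoters of this length in the table. TATAAA was found in 39% and 13.6%, TTTATG in 12.2% and 11.9%, GCGTG in 19.5% and 32.4%, and AGTTCA, a related half-site, in 15.9% and 14%. These are matches of letters and not measured binding sites. Compared base by base from the start site with no alignment, Cyp2b13 and Cyp2b9 shared 298 of 300 promoter bases (99.3%) and Cyp3a25 and Cyp3a59 shared 289 (96.3%). Without alignment a shift of the start site lowers this share, so a low value for another pair does not show that its promoters differ. Transcripts were not compared here. The Cyp2b, Cyp2c, Cyp2d, Cyp3a and Cyp4a subfamilies are known as clusters of close paralogs, and counting of short reads could split or drop reads between such genes, so their single values are uncertain in that respect. The same comparisons were therefore also run on the summed counts of each subfamily.

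Cdx2 itself was read first as a check of the labels. Its level in the CD1 intestine was 153 and 115 CPM at E12, 123 and 152 at E14, 196 and 218 at E16, and 200 and 206 at E18. The libraries labelled as deleted at E10 had 17.4, 14.5 and 27.5 CPM, a log2 difference of -3.4 ± 0.27 (SE) from E16 WT (edgeR quasi-likelihood test, adjusted p = 3.04e-09). The libraries labelled as deleted at E13 had 213 and 217 CPM, and those labelled as deleted at E15 had 388 and 371. The adult libraries labelled as knockout had 472 and 462 CPM against 242 and 248 in the controls. Cdx2 counts thus went against the labels at E13, E15 and in the adult. The sources used here do not say which part of the gene is removed, and counts over a part that remains would check nothing.

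In CD1 small intestine the share of counts on P450 genes was 0.0209% to 0.0252% over the 6 libraries of E12 from the 3 organs, 0.0841% and 0.0849% in the small intestine at E16, and 0.944% and 0.961% at E18. Forestomach had 0.0533% and 0.0548% and hindstomach 0.0505% and 0.0516% at E16. The libraries labelled as deleted at E10 had 0.0812%, 0.0537% and 0.0357%, those labelled as deleted at E13 had 1.66% in both, and those labelled as deleted at E15 had 0.582% and 0.605%. Adult controls had 0.634% and 0.367% and adult knockout-labelled libraries 0.311% and 0.463%. The highest shares lay in the libraries labelled as deleted at E13, above E18 WT, and the adult groups overlapped. In these bulk samples, fewer cells of a type and less RNA per cell cannot be told apart.

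**Figure D1:**
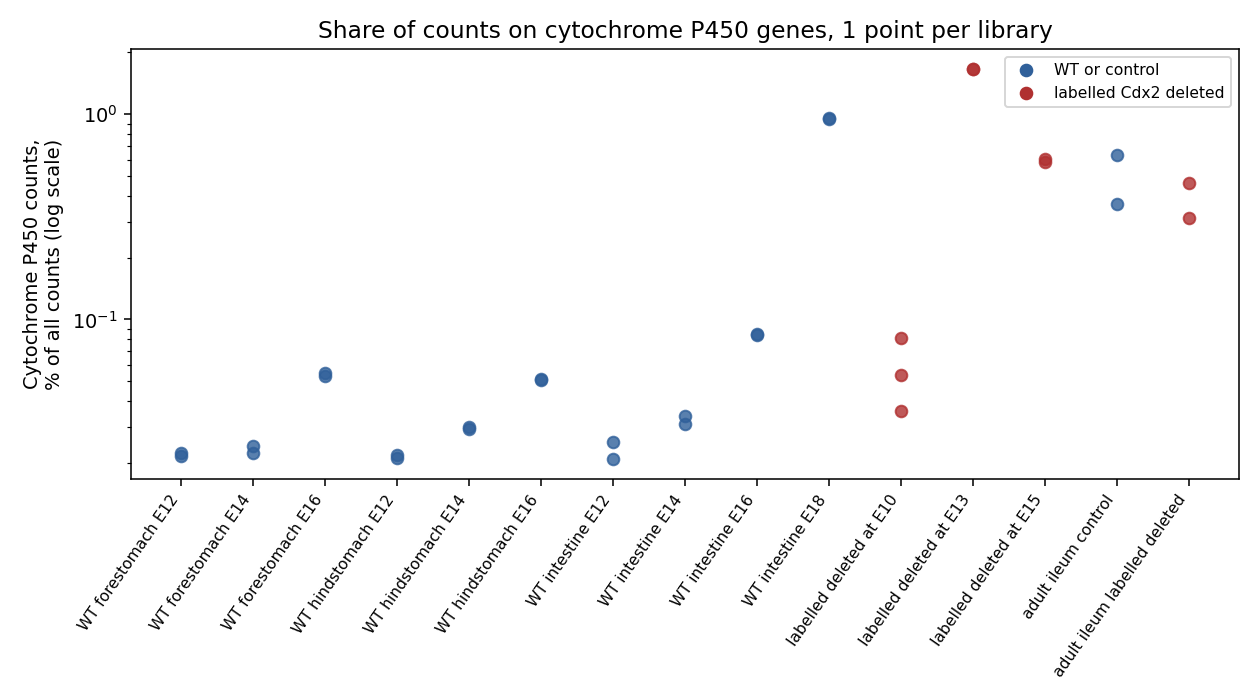
Share of each library's counts (percent, log axis) that fell on the 93 cytochrome P450 genes, 1 point per library, by group. WT and control libraries are blue and libraries labelled as deleted red. Small intestine steps up between E16 (0.0841% and 0.0849%) and E18 (0.944% and 0.961%), and the 2 libraries labelled as deleted at E13 lie highest at 1.66%.

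**Figure D2:**
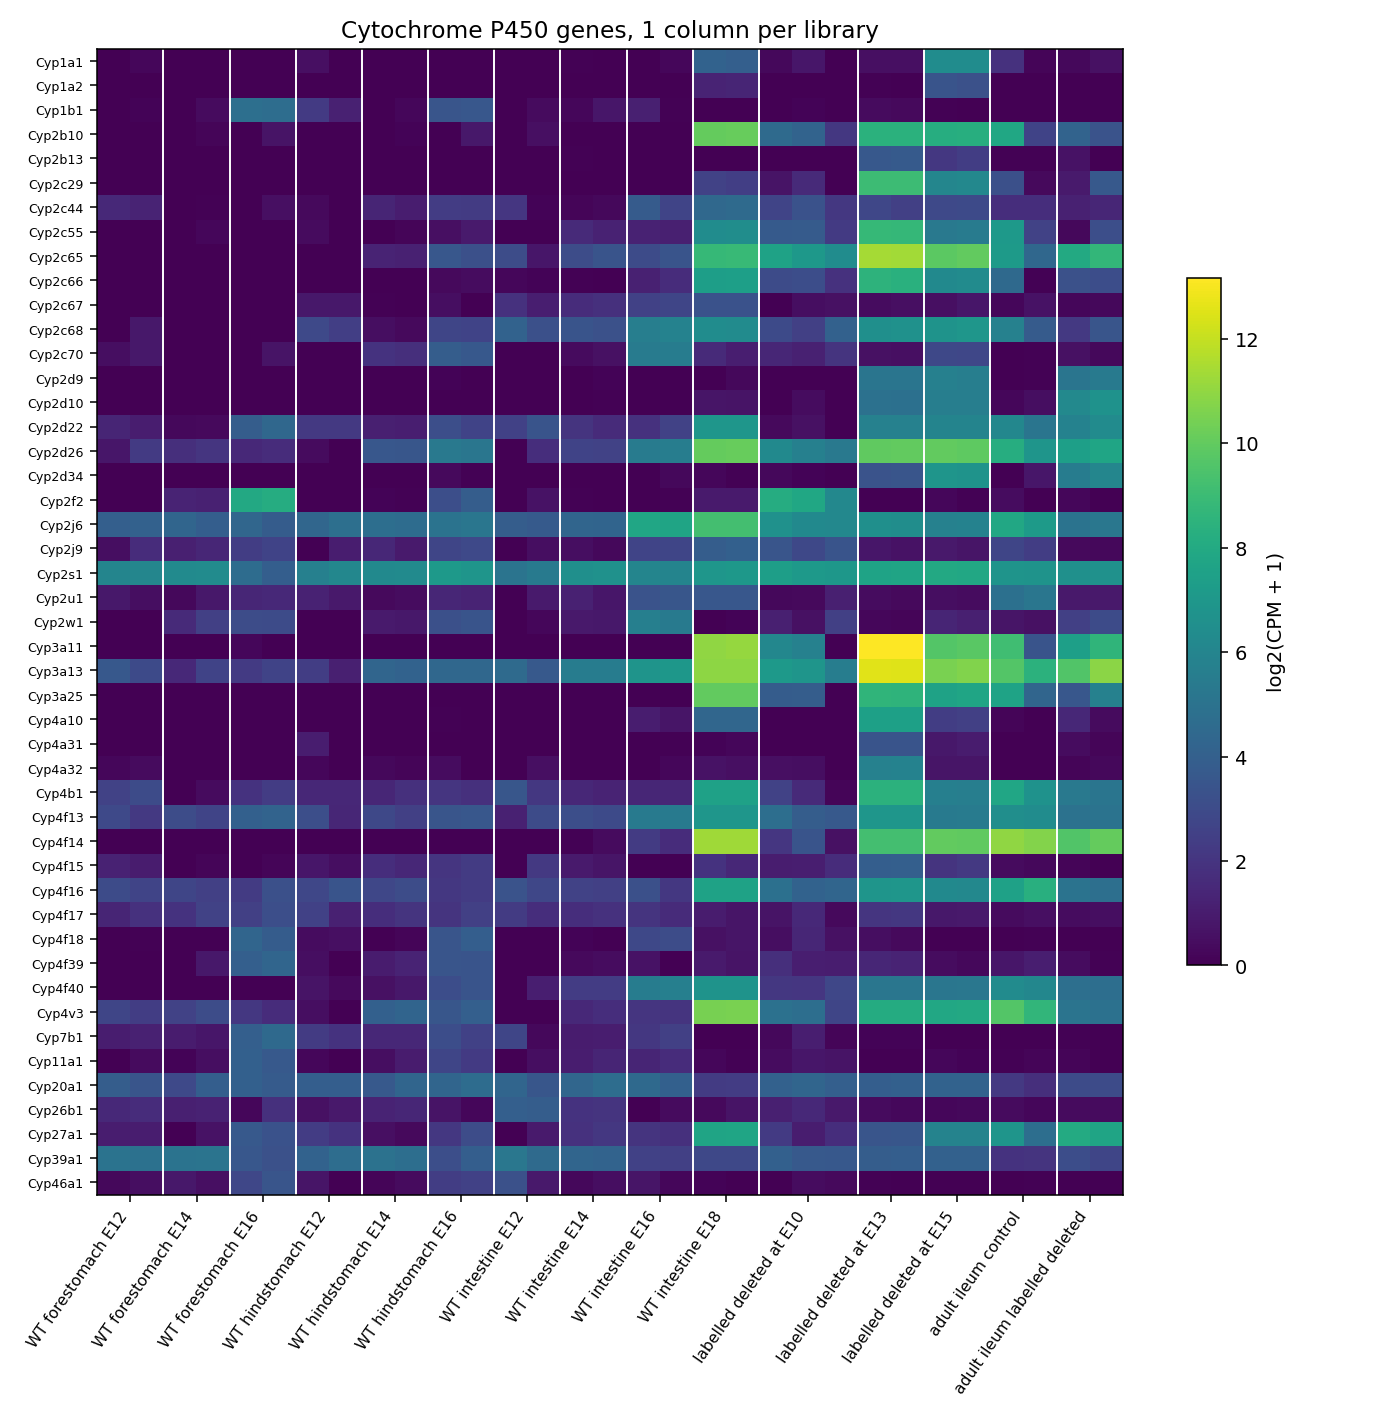
Level of 47 cytochrome P450 genes as log2(CPM + 1) in 31 libraries, 1 column per library and 1 row per gene, ordered by family. Shown are the genes with a mean of at least 5 CPM in at least 1 group. Cyp3a11 is at 797 CPM or more in the E18 WT and the E13- and E15-labelled columns, and Cyp2f2 stands out in E16 forestomach and in the E10-labelled libraries.

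A gene was called changed at an adjusted p below 0.05 in edgeR's quasi-likelihood test (Benjamini-Hochberg over all genes tested) with a log2 fold change of at least 1 in either direction. Of the 93 genes, 64 passed the filter on low counts in the embryonic fit of 17239 genes and 37 in the adult fit of 12444 genes. Nothing in the labels says that the libraries of a group came from separate animals, so p-values measure the spread between these libraries, which may be technical. That spread was small at E18 (chi-square per degree of freedom between the 2 libraries of 1.53) and in the E13-labelled group (2.48), against 132 between 2 of the E10-labelled libraries.

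Many intestinal P450 genes rose between E16 and E18. In small intestine, 29 P450 genes rose and 7 fell, 36 of 64 tested or 56.2%, where 42.1% of all genes tested were called (20.1% higher and 22.1% lower). The median log2 fold change of the 64 was 1.49, against -0.05 over all genes. Both counts are a description of the family and no test of it. Of the 36 calls, 29 held in every refit that left out 1 library and 28 held in DESeq2.

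Among the drug-metabolising genes, Cyp3a11, a main drug and steroid hydroxylase of mouse liver and gut, had no counts in either E16 library and 2050 and 2150 CPM at E18. That is at least 13400-fold higher against a floor of 3 counts per library (edgeR adjusted p = 5.5e-05). Its relative Cyp3a25 went from 0 and 0 to 1010 and 1030 CPM, at least 6500-fold higher (edgeR adjusted p = 1.21e-05). These 2 genes were therefore below detection at E16 and present in both E18 libraries. Cyp2b10, the classical target of the receptor CAR, went from 0 and 0 to 1050 and 1090 CPM, at least 6790-fold higher (edgeR adjusted p = 4.13e-08). Cyp3a13, the form known from gut, was already at 110 and 125 CPM at E16 and reached 1920 and 1960, a log2 fold change of 4.05 ± 0.49 (edgeR adjusted p = 1.14e-06). In each of these genes the 2 E18 libraries lay above both E16 libraries.

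Cyp2c and Cyp2d genes of the same kind rose from low levels. Cyp2c65, known to metabolise arachidonic acid in the gut, rose from 7.15 and 9.88 to 457 and 464 CPM (log2 fold change 5.76 ± 0.62). Cyp2c66 rose from 1.31 and 2.18 to 166 and 173 CPM (6.61 ± 0.41), and Cyp2c55 from 1.36 and 1.26 to 84.1 and 85.5 (6.01 ± 0.6). Cyp2d26 rose from 43.5 and 47.1 to 1060 and 1110 CPM (4.58 ± 0.61) and Cyp2d22 from 2.67 and 5.08 to 118 and 120 (4.94 ± 0.43). Cyp1a1, the enzyme induced through the aryl hydrocarbon receptor, had 0 and 0.164 CPM at E16 and 16.5 and 15.1 at E18, a ratio of 199 with a 95% counting interval from 67.8 to 971. Cyp2c29 (5.01 and 4.5 CPM), Cyp3a44 (2.55 and 1.98), Cyp3a59 (2.14 and 1.65), Cyp2a12 (1.81 and 1.48), Cyp1a2 (1.48 and 1.54) and Cyp2d10 (0.657 and 0.604) appeared at E18 from 0 counts. DESeq2 did not call these, with adjusted p of 0.324, 0.269, 0.379, 0.424, 0.286 and 0.525, nor Cyp2c38 (0.201) and Cyp17a1 (0.162).

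Several genes of fatty acid and sterol enzymes rose in the same window. Others did not pass, such as the Cyp2u (log2 fold change 0.16) and Cyp39a (0.39) subfamilies. Cyp4f14, an omega-hydroxylase of lipid mediators, rose from 3.92 and 2.18 to 2480 and 2480 CPM (log2 fold change 9.66 ± 0.77, edgeR adjusted p = 4.11e-07). Cyp4v3, a fatty acid omega-hydroxylase, rose from 3.02 and 2.95 to 1430 and 1460 CPM (8.92 ± 0.61, edgeR adjusted p = 1.08e-09). Cyp4b1 rose from 1.66 and 1.64 to 183 and 182 CPM (6.78 ± 0.68). These genes were at most at 3.92 CPM in E16 small intestine and far higher in both E18 libraries. Cyp27a1, the mitochondrial sterol hydroxylase of bile acid synthesis, rose from 2.92 and 2.51 to 208 and 214 CPM (6.28 ± 0.76). Cyp2j6, of the Cyp2j subfamily, rose from 218 and 208 to 594 and 600 CPM (1.49 ± 0.18), and Cyp4a10, a target of PPARalpha, from 1.11 and 0.655 to 19.3 and 19.5 (4.45 ± 0.37). As summed counts, the Cyp3a (5.43), Cyp2d (4.61), Cyp4f (4.76), Cyp2c (2.77), Cyp4a (4.33) and Cyp2j (1.49) subfamilies were each called higher by log2 fold change.

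A smaller set of 7 genes fell in small intestine from E16 to E18. Cyp2w1, known from fetal gut and colon tumours, went from 50.2 and 42.3 CPM to 0 and 0.11, a ratio of 0.00142 with a 95% counting interval from 0.000172 to 0.00513 (edgeR adjusted p = 4.04e-06). Cyp2c70, the enzyme that makes muricholic acids in mouse liver, fell from 43.5 and 44.4 to 1.97 and 1.15 CPM (log2 fold change -4.83 ± 0.67, edgeR adjusted p = 8.98e-06). Cyp7b1, an oxysterol hydroxylase, went from 3.32 and 4.64 CPM to no count, at least 19.4-fold lower. Cyp20a1, an enzyme with no established substrate, fell from 21.4 and 15.2 to 3.86 and 4.06 CPM (-2.2 ± 0.36), and Cyp4f18 from 6.14 and 7.48 to 0.493 and 0.659 (-3.54 ± 0.96). Cyp11a1 (1.56 and 2.13 to 0.164 and 0.0549 CPM) and Cyp1b1 (1.26 and 0.0546 to 0 and 0) lost their call when a single E16 or E18 library was left out. Summed hepatocyte markers were 350 to 397 CPM at E16 and 38.4 to 39.0 at E18. Whether these transcripts came from liver cells, and their part in the falls and rises, was not tested.

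Some partners of the P450 system rose as well. Of 9 listed electron partner and heme genes, 8 were tested, and 5 rose (Por, Cyb5b, Cyb5r3, Alas1 and Pgrmc1) while the heme-degrading Hmox1 fell. Por rose from 192 and 192 to 538 and 554 CPM (log2 fold change 1.51 ± 0.16, edgeR adjusted p = 1.43e-07). Of 10 receptors and partners, 5 rose (Nr1i2, Nr1i3, Rxra, Ppara and Vdr) and the bile acid receptor gene Nr1h4 fell. Nr1i2, the gene of PXR, rose from 16.4 and 16.9 to 242 and 236 CPM (3.84 ± 0.41), and Nr1i3, the gene of CAR, from 9.86 and 9.61 to 149 and 157 (3.97 ± 0.46). Ahr did not pass, with 29.5 and 39 CPM at E16 and 31.3 and 32.3 at E18. Of 11 retinoic acid genes, Aldh1a1 rose and 5 fell.

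**Figure D3:**
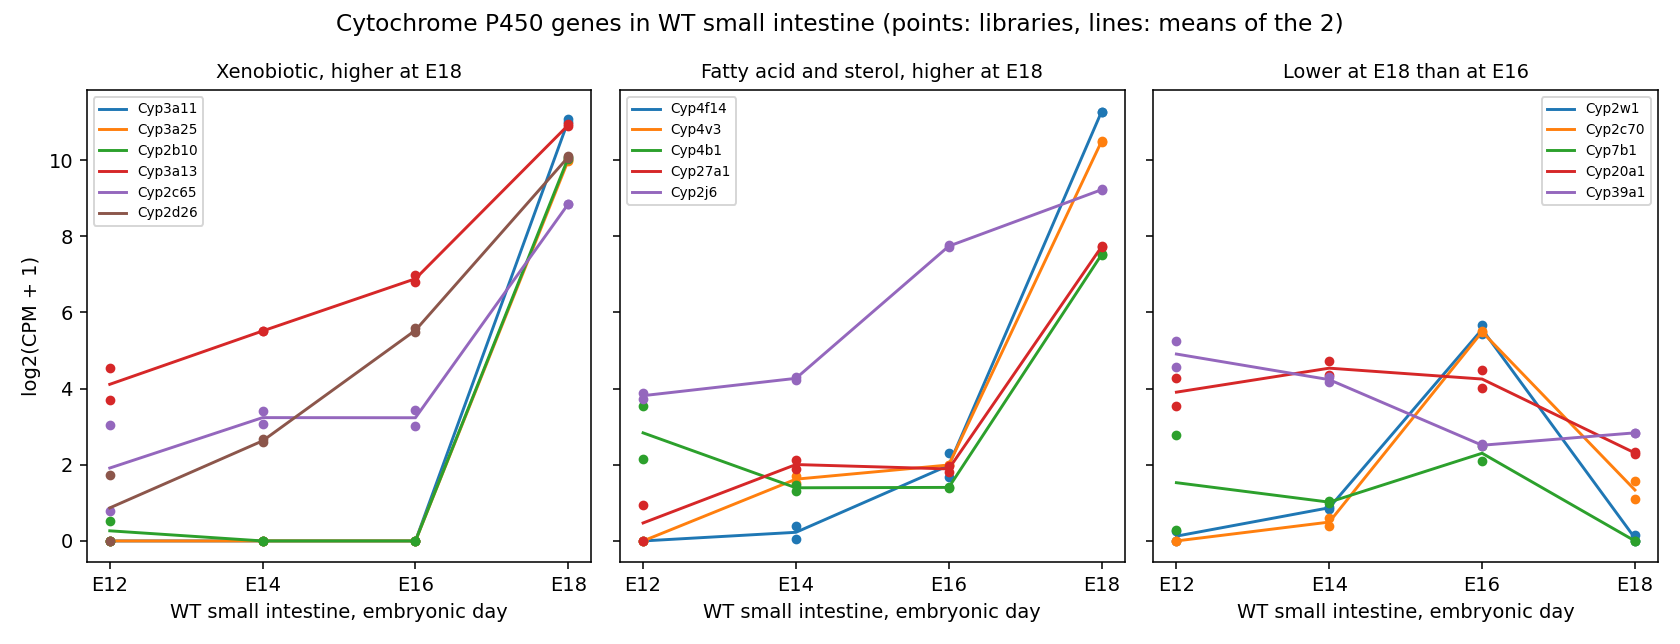
Level as log2(CPM + 1) of 16 cytochrome P450 genes in WT small intestine at E12, E14, E16 and E18, with a point for each of the 2 libraries and lines through the mean of their log2 values. The xenobiotic genes (left) and the fatty acid and sterol genes (middle) rise steeply between E16 and E18, Cyp3a11 from 0 to 2050 and 2150 CPM. The genes on the right are lower at E18 than at E16, except Cyp39a1, to which that panel title does not apply. Cyp39a1 fell from E14 to E16 and was at 4.83 and 4.59 CPM at E16 and 6.16 and 6.15 at E18.

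Fewer P450 genes were called in the earlier steps. From E14 to E16, 15 P450 genes rose and 3 fell in small intestine, 18 of 64 or 28.1%, where 25.6% of all genes were called (13.7% higher and 11.9% lower). Cyp2j6 was at 18.8 and 17.8 CPM at E14 and 218 and 208 at E16 (log2 fold change 3.54 ± 0.2, edgeR adjusted p = 1.77e-10). Cyp2c70 rose from 0.313 and 0.513 to 43.5 and 44.4 CPM (6.76 ± 0.73), Cyp2w1 from 0.871 and 0.789 to 50.2 and 42.3 (5.79 ± 0.92), and Cyp4f18 from 0.109 and 0 to 6.14 and 7.48 (6.52 ± 1.1). Cyp2w1, Cyp2c70 and Cyp4f18 were therefore high at E16 only among the 4 stages measured. Cyp4f40 (3.56 ± 0.63), Cyp2d26 (3.12 ± 0.59), Cyp2c68 (2.51 ± 0.56), Cyp4f13 (2.51 ± 0.58), Cyp2c44 (5.7 ± 1.21), Cyp2c66 (4.99 ± 0.64) and Cyp4f14 (4.66 ± 1.01) rose as well, by log2 fold change. Cyp39a1, an oxysterol hydroxylase, fell from 18.6 and 17.1 to 4.83 and 4.59 CPM (-1.92 ± 0.29), and Cyp26b1, which clears retinoic acid, from 2.86 and 3 to 0 and 0.328 (-4.15 ± 1.04).

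From E12 to E14, 9 rose and 4 fell, 13 of 64 or 20.3%, where 16.2% of all genes were called (11.3% higher and 4.89% lower). Cyp2s1, an epithelial P450 found outside the liver, was at 32.1 and 39.8 CPM at E12 and 93.8 and 101 at E14 (log2 fold change 1.43 ± 0.18, edgeR adjusted p = 1.3e-05). Cyp3a13 rose from 22.2 and 11.9 to 44.4 and 45 CPM (1.39 ± 0.46). The summed Cyp3a counts changed by 1.39 as well but were not called (edgeR adjusted p = 0.0527). Cyp4v3 appeared at 1.88 and 2.29 CPM and Cyp2c55 at 1.99 and 1.38, at least 21.1-fold and 17.1-fold higher than 0 counts at E12. This stage step was the least stable: 7 genes were called without E14 small intestine replicate 1, 5 without replicate 2, and none when the 2 groups were fitted alone, where 7 of 27 tested had an unadjusted edgeR p below 0.05. Over all genes that fit called 214 of 14291 and gave 4131 an unadjusted p below 0.05, so the P450 counts are near those of all genes. DESeq2 over all embryonic libraries called 16, of which 56.2% were higher against 69.2% in edgeR. The 2 E12 libraries differed in Cyp46a1 (8.62 and 0.86 CPM), Cyp4b1 (10.6 and 3.41) and Cyp2c44 (3.28 and 0.0956), and the calls of these genes were lost without E12 replicate 1.

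Among the retinoic acid clearing enzymes, Cyp26b1 was highest in E12 small intestine, at 15 and 13.7 CPM. The other 2 E12 organs had 0.523 to 2.17 CPM, so the groups did not overlap. Cyp26a1 was at 0 and 5.64 CPM in the 2 E12 small intestine libraries and at most 1.85 CPM elsewhere, and Cyp26c1 reached 0.513 CPM at most, in E14 forestomach. Of the vitamin D enzymes, Cyp24a1, which breaks the hormone down, had counts at E18 only among the 31 libraries, at 0.575 and 0.274 CPM, and Cyp27b1, which makes the hormone, reached 0.357 CPM at most. Cyp7a1 and Cyp8b1 of the bile acid pathway reached 0.738 and 0.919 CPM, and Cyp19a1 and Cyp21a1 of steroid synthesis 0.388 and 0.134. The levels of these vitamin D, bile acid and steroid enzymes are close to the limit of counting, and no fold change is given for them. Cyp2r1, also on the vitamin D list, had 0.554 and 0.273 CPM in E16 WT small intestine. It had 3.67, 4.28 and 1.48 CPM in the E10-labelled and 4.38 and 4.19 in the E13-labelled libraries. Its subfamily, of 1 gene, was called higher in both (log2 fold change 2.91 and 3.36, edgeR adjusted p = 0.0426 and 0.0328). It was not called against E18 WT or in the adult.

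The 3 organs were compared at E16. Between small intestine and forestomach, 15 were higher in intestine and 10 lower, 25 of 64 or 39.1%, where 35% of all genes were called (16.4% higher and 18.6% lower). Between small intestine and hindstomach, 12 were higher and 8 lower, 20 of 64 or 31.2%, where 25.7% were called (8.1% higher and 17.5% lower). Between forestomach and hindstomach, 2 were higher in forestomach and 11 lower, 13 of 64 or 20.3%, where 20.1% were called (6.27% higher and 13.8% lower). The first 2 comparisons share the small intestine libraries, and the stomach groups are shared in the same way, so their values are given side by side. Over both directions together, these shares are near the background of all genes. By direction they were less even. Against hindstomach, 12 of 64 were higher in intestine, where 8.1% of all genes were, and 8 lower, where 17.5% were. These counts describe the family and do not test it.

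On the intestinal side stood Cyp2j6, at 218 and 208 CPM in small intestine, 31.5 and 35.1 in hindstomach and 19 and 13.2 in forestomach (log2 fold change 2.68 ± 0.19 against hindstomach and 3.73 ± 0.21 against forestomach). Cyp3a13 was at 110 and 125, 19.7 and 20.4, and 3.7 and 5.36 CPM in the same order of organs (2.55 ± 0.47 and 4.69 ± 0.58). Cyp2c68 was at 48.9 and 56.3 CPM in small intestine, 5.64 and 5.18 in hindstomach and without a count in forestomach. All 3 genes fell in the order small intestine, hindstomach, forestomach, with no overlap between organs. Cyp4f40 had 45 and 49.5, 7.68 and 9.74, and 0 and 0 CPM, and Cyp2c70 had 43.5 and 44.4, 13.7 and 11.3, and 0 and 0.612. Cyp2w1, at 50.2 and 42.3 CPM in small intestine, had 8.12 and 9.57 in hindstomach and 7.25 and 7.19 in forestomach. Cyp2d26 was not called between intestine and hindstomach, at 43.5 and 47.1 against 38.5 and 34.5 CPM without overlap, and forestomach had 1.85 and 2.14. Cyp2s1 was highest in hindstomach at 132 and 117 CPM, then small intestine at 63 and 60.8, then forestomach at 24.5 and 14.4.

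On the gastric side stood Cyp2f2, known from the airway for activating naphthalene, with 244 and 280 CPM in forestomach, 7.9 and 13.8 in hindstomach and 0 and 0.0546 in small intestine. Forestomach exceeded hindstomach by a log2 fold change of 4.6 ± 0.61 (edgeR adjusted p = 2.42e-05). The small intestine to forestomach ratio was 9.98e-05, with a 95% counting interval from 2.53e-06 to 0.000556. Cyp1b1 had 26.9 and 25.3 CPM in forestomach, 10.2 and 11 in hindstomach and 1.26 and 0.0546 in small intestine (log2 fold change of intestine against forestomach -5.29 ± 1.4). Cyp4f39 had 15.1 and 18.4, 9.94 and 9.83, and 0.554 and 0 CPM in that order. Cyp46a1 (5.87 and 9.95 CPM), Cyp2d22 (13.7 and 19.7) and Cyp27a1 (12 and 9.03) were also called higher in forestomach than in small intestine. The call of Cyp27a1 was lost without forestomach replicate 1 or either small intestine library, and that of Cyp46a1 without replicate 2 of either organ. Cyp4f15, Cyp4x1 and Cyp4v3 were highest in hindstomach, where Cyp4f15 had 3.02 and 3.83 CPM against 0 and 0 in small intestine, at least 21.7-fold higher. Against hindstomach, small intestine fell to 13 called genes without E16 hindstomach replicate 1, and forestomach to 8 without E16 hindstomach replicate 2. Cyp26b1 was called lower in intestine than in forestomach (0 and 0.328 against 0.154 and 2.6 CPM), but the fold change reversed to 0.06 without forestomach replicate 2.

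Markers of other cells were not even across these organs. Summed mesenchyme and muscle markers stood at 18900 to 23100 CPM in E16 forestomach, 7910 to 8140 in hindstomach and 1360 to 1480 in small intestine, and at 15400 to 19900, 1250 to 1770 and 193 to 197 CPM for blood markers. Epithelial markers (Epcam, Cdh1, Krt8, Krt18 and Krt19) were at 1570 to 1620 CPM in forestomach, below the 8390 to 8620 of small intestine. That list leaves out the forestomach keratins Krt5 and Krt13, so it may not measure the epithelium of these organs alike. Acinar pancreas markers reached 3950 to 4230 CPM in hindstomach and 970 to 1060 in small intestine. The part of these cells in the gastric P450 values, such as those of Cyp1b1 and Cyp4f39, was not tested. Of the 10 receptors and partners, 6 (Nr1i2, Nr1i3, Nr1h4, Ppara, Vdr and Hnf4a) were higher in small intestine than in forestomach, and the same 6 were higher than in hindstomach.

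**Figure D4:**
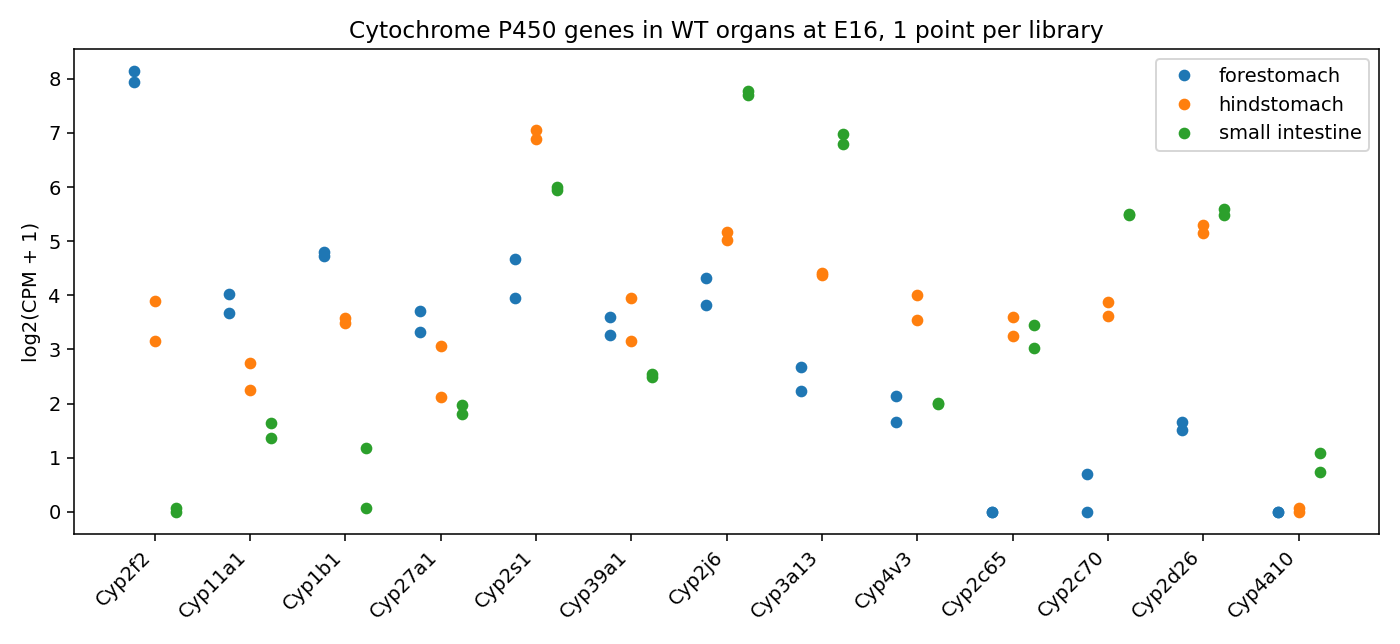
Level as log2(CPM + 1) of 13 cytochrome P450 genes in WT forestomach, hindstomach and small intestine at E16, with 1 point per library and 2 libraries per organ. Cyp2f2 is high in forestomach (244 and 280 CPM) and near 0 in small intestine, Cyp2s1 is highest in hindstomach, and Cyp2j6 and Cyp3a13 are highest in small intestine.

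In the stomach organs themselves, 14 P450 genes rose and 1 fell from E14 to E16 in hindstomach (23.4% of 64, where 22% of all genes were called, 16.5% higher and 5.5% lower). In forestomach 11 rose and 2 fell (20.3%, where 37.7% were called, 20.8% higher and 16.9% lower). Cyp2f2 rose from 1.5 and 1.3 to 244 and 280 CPM in forestomach (log2 fold change 7.55 ± 0.72, edgeR adjusted p = 2.94e-07) and from 0.106 and 0.0376 to 7.9 and 13.8 in hindstomach (7.12 ± 0.95). Cyp2s1 fell in forestomach, from 79.2 and 80.6 to 24.5 and 14.4 CPM (-2.04 ± 0.19), and Cyp39a1 fell in both, from 31.5 and 32.2 to 11.1 and 8.57 and from 30.6 and 25.8 to 7.94 and 14.4 CPM. Cyp1b1, Cyp11a1, Cyp4f39, Cyp27a1, Cyp7b1, Cyp4f18 and Cyp2d22 rose in forestomach, where Cyp7b1 went from 1.03 and 0.723 to 14.7 and 21.9 CPM. Mesenchyme and blood markers were high in E16 forestomach, as given above, and their part in these rises was not tested. The hindstomach count fell to 8 without E14 hindstomach replicate 1 and to 9 without replicate 2. In the test of the difference between organs, 8 genes changed differently from E14 to E16 in small intestine and hindstomach (12.5% of 64, where 13.1% of all genes were called, 3.92% higher and 9.17% lower). Cyp2j6 rose more in intestine by 3.14 ± 0.26 on the log2 scale (edgeR adjusted p = 1.69e-07) and Cyp2c70 by 4.53 ± 0.85. Between 3 and 7 such calls were made when 1 library was left out. Fitting the compared groups alone gave more calls, as listed under the processing.

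In the libraries labelled as deleted at E10, several P450 genes of E16 intestine were low, and genes with higher levels in E16 stomach than in E16 intestine went both ways. Against E16 WT small intestine, 18 P450 genes were higher and 14 lower, 32 of 64 or 50%, where 51.5% of all genes tested were called (23.9% higher and 27.6% lower). This share is near the background. Of the 32, 26 held in every refit without 1 library and 27 held in DESeq2.

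Cyp2j6 was at 98.7, 75.2 and 70 CPM against 218 and 208 in WT (log2 fold change -1.38 ± 0.16, edgeR adjusted p = 3.27e-07). Cyp2c70 was at 1.67, 1.34 and 2.96 CPM against 43.5 and 44.4 (-4.48 ± 0.56), and Cyp2w1 at 1.2, 0.503 and 4.69 against 50.2 and 42.3 (-4.49 ± 0.74). All 3 deleted libraries lay below both WT libraries in these genes. Cyp4f40 (-3.52 ± 0.56), Cyp2c68 (-2.57 ± 0.5), Cyp2u1 (-4.23 ± 0.96), Cyp2c67 (-4.21 ± 1.06), Cyp2d22 (-3.75 ± 0.5), Cyp7b1 (-2.95 ± 0.93) and Cyp4f18 (-2.97 ± 0.8) were lower as well. Cyp4a10 and Cyp2e1 had no count in the 3 deleted libraries, at least 3.21-fold and 3.11-fold lower.

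Cyp2f2, highest in forestomach among the E16 organs, was at 283, 228 and 70.3 CPM against 0 and 0.0546 in WT small intestine, a ratio of 8210 with a 95% counting interval from 1470 to 324000 (edgeR adjusted p = 2.48e-08). Cyp2s1, highest in hindstomach at E16, was at 167, 134 and 126 CPM against 63 and 60.8 (1.21 ± 0.17), and Cyp4v3 at 28.9, 26.2 and 5.68 against 3.02 and 2.95 (2.79 ± 0.5). Cyp4f15 was at 1.07, 1.17 and 2.22 CPM against no count, at least 9.46-fold higher. Other genes of E16 forestomach were at or near 0: Cyp1b1 at 0, 0.0839 and 0 CPM (called lower by edgeR, though overlapping WT small intestine at 1.26 and 0.0546), Cyp46a1 at 0, 0.336 and 0.247, Cyp11a1 at 0.334, 0.755 and 0.618, Cyp7b1 at 0.2, 1.17 and 0.124, and Cyp2d22 at 0.267, 0.503 and 0. Some genes of the E18 intestine were present: Cyp2c65 was at 194, 130 and 84.1 CPM against 7.15 and 9.88 (4 ± 0.56), and Cyp2b10 at 22.5, 17.6 and 3.46 against 0 and 0, at least 92.3-fold higher. Cyp3a11 was at 67.9 and 54.6 CPM in 2 deleted libraries and without a count in the third, as in WT, so the groups overlapped. Its edgeR adjusted p was 0.00121 and its DESeq2 adjusted p 0.0597. Cyp3a25 (13.4, 13.8 and 0 CPM, DESeq2 adjusted p = 0.203) behaved alike in the same libraries. Cyp2c29, Cyp4f13 and Cyp4x1 were also not called by DESeq2 (adjusted p = 0.419, 0.0566 and 0.114). As summed counts, Cyp2c (log2 fold change 0.47), Cyp3a (0.36) and Cyp2d (0.17) were not called. The Cyp2j (-1.28) and Cyp4f (-1.05) sums were called lower.

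Replicate 3 of this group had the lowest Cyp2f2, Cyp3a11 and Cyp2c65. Summed glandular stomach markers were 2200 to 4360 CPM in the E10-labelled libraries against 4.14 to 6.23 in WT, forestomach markers 209 to 844 against 0.12 to 1.42, and small intestine markers 1090 to 2570 against 8780 to 9030. These sums lack the TMM factors, which were 0.651, 0.5424 and 0.6319 here and 1.086 and 1.098 in E16 WT. Of 10 receptors and partners, 7 were lower (Arnt, Nr1i3, Rxra, Nr1h4, Ppara, Vdr and Hnf4a). Hnf4a was at 23.7, 23.3 and 44.7 CPM against 389 and 349 (log2 fold change -3.61 ± 0.33, edgeR adjusted p = 1.02e-08). Nr1i2 did not pass, at 20.4, 15.4 and 19.9 CPM against 16.4 and 16.9. Por (-1.01 ± 0.14) and Cyb5b (-1.16 ± 0.12) were lower, and Fdx1, the electron donor of mitochondrial P450 enzymes, was higher (3.21 ± 0.17).

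The libraries labelled as deleted at E13 held the highest levels of Cyp3a11, Cyp3a13, Cyp2c65, Cyp2c55, Cyp2c29 and Cyp4a10 among the embryonic libraries, and were collected at E16. Against E16 WT small intestine, 30 P450 genes were higher and 9 lower, 39 of 64 or 60.9%, where 39.5% of all genes were called (18.7% higher and 20.8% lower). The median log2 fold change over the 64 was 2.38, or 2.13 with genes of an empty group set at their bound, against -0.05 over all genes. Against E18 WT small intestine, 15 were higher and 14 lower, 29 of 64 or 45.3%, where 16.1% were called (8.19% higher and 7.91% lower). In DESeq2, 31 of the 39 calls against E16 held, and 17 of the 29 against E18, where it lost 11 and gave no adjusted p for 1. These 2 comparisons share the E13-labelled libraries and are given side by side.

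Cyp3a11 was at 9050 and 9190 CPM, where E16 WT had none and E18 WT had 2050 and 2150. Against E16 this is at least 57900-fold higher (edgeR adjusted p = 2.59e-05). Against E18 it was not called. Cyp3a13 was at 6100 and 5930 CPM, a log2 fold change of 5.68 ± 0.53 against E16 and 1.63 ± 0.45 against E18, where 1920 and 1960 were measured. Cyp2c65 was at 2660 and 2580 CPM (8.27 ± 0.69 and 2.51 ± 0.52), with 457 and 464 at E18. Both genes therefore lay above WT of either stage in both libraries, though the Cyp3a13 call against E18 was lost without either E18 library. Cyp2c55, at 447 and 429 CPM, was higher than at E16 (8.38 ± 0.65) and at E18 (2.37 ± 0.47).

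Cyp2c29 was at 513 and 522 CPM against 0 and 0 at E16 and 5.01 and 4.5 at E18 (log2 fold change against E18 6.77 ± 0.54), but DESeq2 gave adjusted p of 0.0676 and 0.566. Cyp4a10 was at 176 and 175 CPM against 1.11 and 0.655 at E16 (7.62 ± 0.42) and 19.3 and 19.5 at E18 (3.18 ± 0.33). Its relatives in the Cyp4a subfamily, Cyp4a32 (53.8 and 55.6 CPM) and Cyp4a31 (9.8 and 9.68), had 0 to 0.575 CPM in the 4 WT libraries. Their receptor gene Ppara was at 173 and 174 CPM, with 31 and 31.9 at E16 and 104 and 101 at E18. Cyp2d9 (33.6 and 33.6 CPM) and Cyp2d10 (28.6 and 27.7), for which E16 WT had none, were at least 214-fold and 179-fold higher in edgeR. DESeq2 did not call them, with adjusted p of 0.183 and 0.194. Cyp2b13 was at 11.5 and 12.3 CPM against no count in either WT stage.

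Other genes lay between the levels of the 2 WT stages. Cyp4f14 was at 603 and 608 CPM, between 3.92 and 2.18 at E16 and 2480 and 2480 at E18. Cyp4v3 was at 276 and 277 CPM, a log2 fold change of 6.53 ± 0.56 against E16 and -2.39 ± 0.44 against E18. Cyp2b10 was also between the stages, at 336 and 342 CPM. Cyp27a1, at 10.1 and 10.3 CPM, was nearer E16 (1.91 ± 0.66) than E18 (-4.37 ± 0.68). Cyp1a1 was at 0.455 and 0.446 CPM, where E18 had 16.5 and 15.1 (-5.12 ± 1.07, edgeR adjusted p = 0.00224, DESeq2 adjusted p = 0.145).

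A few genes were below both stages. Cyp2j6 was at 91.9 and 86.5 CPM (log2 fold change -1.25 ± 0.18 against E16 and -2.74 ± 0.19 against E18). Cyp2u1, a fatty acid hydroxylase, was at 0.331 and 0.268 CPM against 9.46 and 10.3 at E16 and 10.9 and 11.1 at E18 (-5.02 ± 1.15 and -5.18 ± 1.16). Cyp2j9, at 0.744 and 0.535 CPM, was lower by -3.14 ± 1.12 and -4.48 ± 1.17, and Cyp2c67 by -3.76 ± 1.16 and -4.5 ± 1.19. The calls of Cyp2j9 and Cyp2c67 were each lost without either E13-labelled library. Cyp2w1 (0.165 and 0.134 CPM) and Cyp2c70 (0.496 and 0.446) were low as at E18. Against E18, 17 to 19 genes were called when any 1 of the 4 libraries was left out. Glandular stomach markers summed to 1590 to 1660 CPM and forestomach markers to 1.04 to 1.12 in these libraries, and small intestine markers to 9430 to 9450. These sums lack the TMM factors, which were 0.7168 and 0.7174 here and 1.086 and 1.098 in E16 WT. Against E16, 6 of 8 electron partner and heme genes and 5 of 10 receptors and partners were higher (edgeR quasi-likelihood test). Against E18, only Hmox1 was called among the electron partner and heme genes, as higher. Only Nr1i3 was called among the receptors and partners, as lower.

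In the libraries labelled as deleted at E15, 11 P450 genes were higher and 14 lower than in E18 WT small intestine, 25 of 64 or 39.1%, where 17.5% of all genes were called (7.79% higher and 9.7% lower). Omitting any 1 of the 4 libraries gave 13 to 17 calls, and fitting the 2 groups alone gave 42. Of the 25 calls, 17 held in DESeq2, which lost 6 and gave no adjusted p for 2. DESeq2 itself called 5 higher and 15 lower, so 25% of its calls were higher against 44% in edgeR.

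Of the 11 higher genes, 5 belonged to the Cyp2d subfamily. Cyp2d34 was at 114 and 108 CPM against 0.164 and 0.0549, a ratio of 1120 with a 95% counting interval from 382 to 5420 (edgeR adjusted p = 5.44e-06). Cyp2d9, a steroid hydroxylase of male mouse liver, was at 51.6 and 49 CPM against 0 and 0.22 (log2 fold change 8.58 ± 1.08), and Cyp2d10 at 49.3 and 48.1 against 0.657 and 0.604 (6.26 ± 0.87). DESeq2 did not call Cyp2d9 and Cyp2d10, with adjusted p of 0.409 and 0.589. Cyp2d13 (3.46 and 3.59 CPM) and Cyp2d12 (2.58 and 3.29) appeared from 0 counts, at least 17.2-fold and 14.3-fold higher, and lost the call without any 1 of the 4 libraries. Cyp2d26 was not called, at 990 against 1080 CPM as group means, and the Cyp2d sum changed by 0.07 on the log2 scale (edgeR adjusted p = 0.95). Cyp2c29 (64.6 and 69.7 against 5.01 and 4.5 CPM, DESeq2 adjusted p = 0.786), Cyp20a1 (16.4 and 16.4 against 3.86 and 4.06, 2.05 ± 0.36), Cyp39a1 (15.9 and 16.2 against 6.16 and 6.15, 1.38 ± 0.29), Cyp2c70 and Cyp2w1 were higher as well. Cyp1a1 was at 84.7 and 82.2 CPM against 16.5 and 15.1, with no overlap, but did not pass the test (2.4 ± 0.89, edgeR adjusted p = 0.0552). The summed Cyp1a counts were called higher (2.42, edgeR adjusted p = 0.0398), and Ahr was higher (1.02 ± 0.34).

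The lower genes included enzymes of fatty acids and drug-metabolising genes that had risen by E18. Cyp2j6 was at 54.7 and 56.5 CPM against 594 and 600 (log2 fold change -3.42 ± 0.19, edgeR adjusted p = 3.24e-10). Cyp4v3 was at 236 and 250 CPM against 1430 and 1460 (-2.57 ± 0.44, edgeR adjusted p = 0.000222), and Cyp2u1 at 0.413 and 0.344 against 10.9 and 11.1 (-4.85 ± 1.14). Both E15-labelled libraries lay well below both WT libraries in these genes. Cyp4f16 (74.3 and 70 against 189 and 188 CPM, -1.39 ± 0.34) and Cyp4a10 (4.29 and 4.55 against 19.3 and 19.5, -2.13 ± 0.32) also held without any 1 library. Cyp4b1 (-1.88 ± 0.52), Cyp2j9 (-4.2 ± 1.15), Cyp2c67 (-3.84 ± 1.15), Cyp27a1 (-1.84 ± 0.61), Cyp4f13 (-1.51 ± 0.56) and Cyp2c66 (-1.13 ± 0.31) were lower in the full fit and lost the call in refits without 1 library. Cyp2b10, at 295 and 303 against 1050 and 1090 CPM, and Cyp3a25, at 192 and 212 against 1010 and 1030, did the same and were not called by DESeq2 (adjusted p = 0.54 and 0.879). Cyp3a11 was not called, at 797 and 879 CPM against 2050 and 2150 (log2 fold change -1.33 ± 0.97, edgeR adjusted p = 0.36). Por was lower (277 and 257 against 538 and 554 CPM, -1.03 ± 0.15), and so was Vdr (192 and 196 against 689 and 698, -1.83 ± 0.41).

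The change in the E15-labelled libraries against E18 was tested against the change in the E13-labelled libraries against E16, which share no library. It differed for 28 of 64 P450 genes (43.8%, where 37.9% of all genes were called, 18.1% higher and 19.8% lower), with 23 lower and 5 higher at E15. Cyp4v3 differed by -9.11 ± 0.71 on the log2 scale (edgeR adjusted p = 9.9e-09), Cyp4a10 by -9.75 ± 0.52 and Cyp3a13 by -6.01 ± 0.67. Cyp2j6, lower in both, was lower by a further -2.17 ± 0.25 at E15. Cyp2c70 (8.51 ± 0.93) and Cyp20a1 (2.35 ± 0.48) differed the other way. Stage of collection, isolation method and labelled time of deletion changed together between these pairs and cannot be told apart.

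In adult ileum, 9 P450 genes were higher and 9 lower in the libraries labelled as knockout, 18 of 37 tested or 48.6%, where 20.4% of all genes were called (8.41% higher and 12% lower). Of these, 11 held in every refit without 1 library, and the count was 11 without knockout replicate 1. All 18 held in DESeq2. These counts describe the family and do not test it. Cyp2d9, Cyp2d10, Cyp2d13, Cyp2d34, Cyp11b1 and Cyp11b2 had 0 to 13 counts summed over the controls. They passed the low-count filter through the knockout-labelled group only, which favours a call as higher. Cyp2j9, with 9 counts summed over the knockout-labelled libraries, passed through the controls only.

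Among the higher genes, 4 belonged to the Cyp2d subfamily, whose summed counts were not called (log2 fold change 0.79, edgeR adjusted p = 0.228), nor was Cyp2d26 (-0.09 ± 0.46). Cyp2d10 was at 71.8 and 102 CPM against 0.188 and 0.397 in controls (log2 fold change 8.16 ± 0.38, edgeR adjusted p = 0.00107). Cyp2d9 was at 33.3 and 41.7 CPM against 0 and 0.0567, a ratio of 1220 with a 95% counting interval from 219 to 48300. Cyp2d34 was at 45.1 and 65.9 CPM against 0 and 0.737 (7.15 ± 0.8). These groups lay far apart in both libraries, but Cyp2d13, at 1.33 and 0.713 CPM against no count, lost its call without any 1 of the 4 libraries. Cyp2w1 was at 4.68 and 6.92 CPM against 0.688 and 0.51 (3.26 ± 0.39). Cyp39a1 and Cyp20a1, each higher by 1.21 on the log2 scale, lost the call in some refits.

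The Cyp11b genes, which make glucocorticoid and aldosterone in the adrenal, were counted in adult knockout-labelled ileum and almost nowhere else in the 31 libraries. Cyp11b1, the last enzyme of glucocorticoid synthesis, was at 5.05 and 4.78 CPM against 0.0625 and 0.0567, a ratio of 83.3 with a 95% counting interval from 22.7 to 693 (edgeR adjusted p = 0.00259). Cyp11b2, the aldosterone enzyme, was at 1.78 and 1.57 CPM against no count, at least 9.37-fold higher (edgeR adjusted p = 0.0104), and lost the call without either knockout-labelled library. In the embryonic libraries Cyp11b1 reached 0.0892 CPM and Cyp11b2 0.0517 CPM at most. Cyp11a1, the first enzyme of steroid synthesis, stayed at 0.124 CPM or less in all 4 adult libraries and Cyp17a1 at 1 CPM or less. The 3 steroidogenic cell markers summed to 3.84 to 5.55 CPM in the knockout-labelled libraries and 3.37 to 4.93 in the controls, with Hsd3b1 without counts in both.

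Among the genes that were lower, Cyp2u1 was at 0.87 and 0.856 CPM against 28.5 and 34.8 (log2 fold change -5.18 ± 0.21, edgeR adjusted p = 0.000898). Cyp4v3 was at 32.3 and 28.8 CPM against 795 and 406 (-4.3 ± 0.39), and Cyp2j9 at 0.248 and 0.214 against 5.69 and 4.25 (-4.36 ± 0.4). Cyp4f16 was at 31.7 and 26.6 CPM against 182 and 319 (-3.1 ± 0.32). In each, both knockout-labelled libraries lay below both controls. Cyp2j6 (31.2 and 36.2 against 234 and 145 CPM, -2.49 ± 0.27) lost its call without knockout replicate 1, and Cyp4b1 (-2.16 ± 0.4) without either knockout-labelled library. Cyp4f13 (-1.48 ± 0.12), Cyp4f40 (-1.47 ± 0.13) and Cyp4f14 (-1.04 ± 0.23) completed the set, and the Cyp4f sum was lower by -1.2 (edgeR adjusted p = 0.0155).

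The drug-metabolising genes that mark E18 intestine varied between the 2 adult controls. Cyp3a11 was at 549 and 9.52 CPM in the controls and 170 and 385 in the knockout-labelled libraries (edgeR adjusted p = 0.996), Cyp2b10 at 226 and 5.27 against 17.1 and 9.42, and Cyp2c65 at 146 and 19.7 against 255 and 421. The summed Cyp4a counts were called higher (3.72, edgeR adjusted p = 0.0165), where Cyp4a10 was at 1.74 and 0.285 CPM against 0.125 and 0. Of the receptors and partners, Ppara was higher (1.87 ± 0.42) and Vdr lower (94.3 and 135 against 513 and 458 CPM, -2.08 ± 0.22). Of 8 electron partner and heme genes, Hmox1 was higher and Cyb5r3 and Fdxr lower.

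The adult comparison and the one of E15-labelled libraries with E18 share no library. Of 35 P450 genes tested in both, 19 were called at E15 and 16 in the adult, and 14 were called in both, each in the same direction. Higher in both were Cyp20a1, Cyp2d9, Cyp2d10, Cyp2d13, Cyp2d34, Cyp2w1 and Cyp39a1, and lower in both were Cyp2j6, Cyp2j9, Cyp2u1, Cyp4b1, Cyp4f13, Cyp4f16 and Cyp4v3. At E15, DESeq2 did not call Cyp2d9 and Cyp2d10 (adjusted p = 0.409 and 0.589) and gave no adjusted p for Cyp2d13. The E15 calls of Cyp2d13, Cyp2w1, Cyp2j9, Cyp4b1 and Cyp4f13 were lost in at least 1 refit without a library. The shared calls are 73.7% of those at E15 and 87.5% of those in the adult. Over all 12408 genes tested in both, 1168 were called in the same direction, 46.5% of 2513 calls at E15 and 46.2% of 2527 in the adult. These shares describe the family and do not test it. Cyp2d9, Cyp2d10, Cyp2d13 and Cyp2d34 belong to a subfamily of close paralogs between which reads could be split, so they may not be independent. In the adult they also passed the low-count filter through the knockout-labelled group only. Cyp27a1 went the other way in size, at 58.9 and 59 against 208 and 214 CPM at E15 and 264 and 203 against 115 and 25.6 CPM in the adult, where it was not called.

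**Figure D5:**
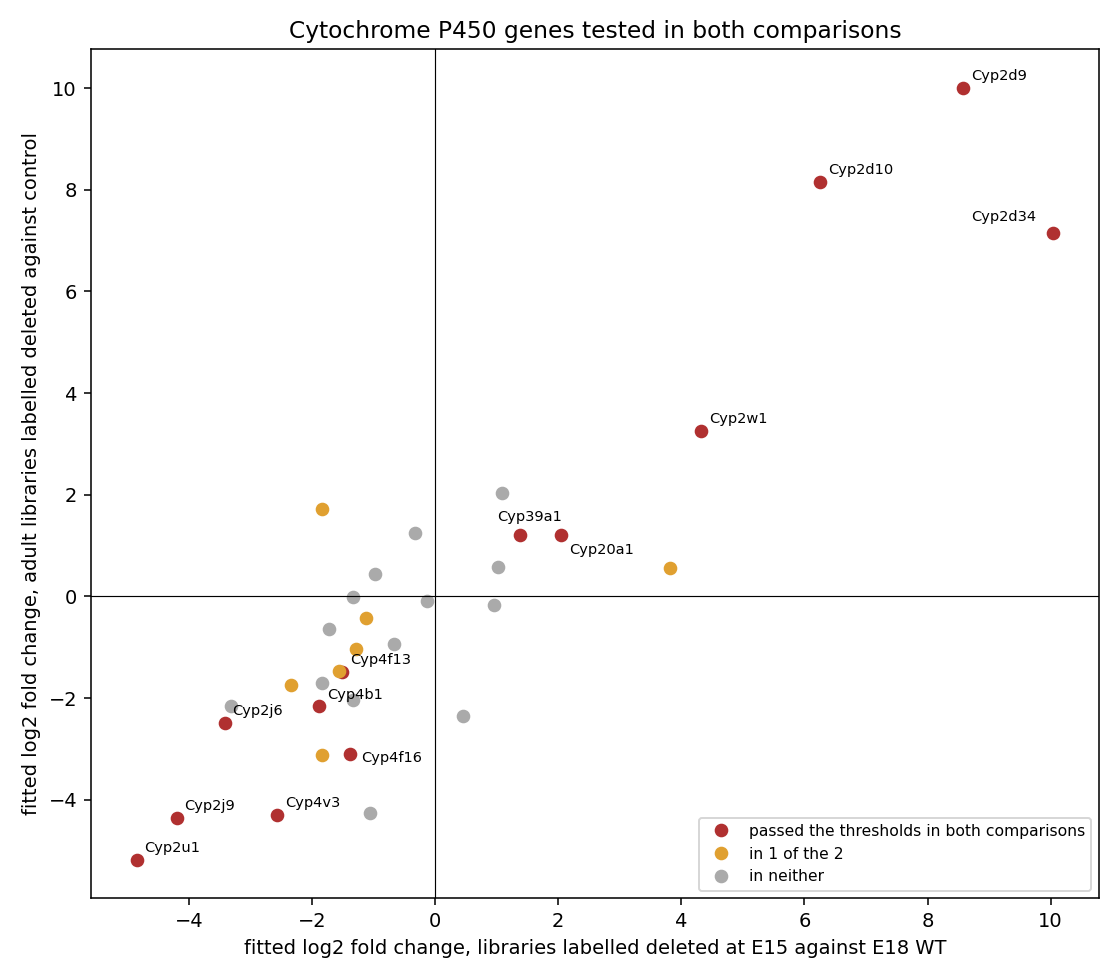
Fitted log2 fold change of 34 of the 35 cytochrome P450 genes tested in both comparisons, for libraries labelled as deleted at E15 against E18 WT (x axis) and for adult knockout-labelled against control libraries (y axis). Cyp2d13 is left out because a group had no count, and 13 of the 14 genes called in both comparisons are red and named. Named genes lie in the upper right (Cyp2d9, Cyp2d10 and Cyp2d34 farthest) or the lower left (Cyp2u1 farthest).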

How the data were processed

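RNA from 31 samples was measured with the SMARTer-Seq v4 kit (embryonic) or TruSeq v2 (adult) and read as single 75 bp reads, per the labels' protocols. The authors deposited raw counts per gene in one table. The submitters' processing notes name STAR 2.5.3a, HTSeq and mm9, with the annotation and strand setting not given in the sources used here. Other assays of the series were not used. Columns were matched to samples by name, and 2 columns that match no sample were not used. Each of the 4 adult columns has 2 blank cells, above which all 93 genes lie, so closing them up moves no P450 value (0 lie below the first blank).

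Genes were kept with edgeR's filterByExpr at a minimum count of 10. Counts were scaled by TMM and tested with the quasi-likelihood test (R 4.3.3, edgeR 4.0.16, limma 3.58.1). One fit held the 27 embryonic libraries in 13 groups and another the 4 adult libraries. DESeq2 1.42.0, RLE scaling, no filter, no fold minimum, the compared groups alone, all 31 libraries in one fit, a replicate block and leaving out each library were tried as alternatives. Where a group had no count, folds are lower bounds against 3 counts per library, and with 1 to 3 counts a ratio with an exact binomial interval is given. Intervals and floors cover counting error only. The steps were tested on simulated data. In each comparison up to 10 called genes per direction, by size of change, were to be named, beside genes listed by role. Not all of those with few counts are given with values. The members and gene lists were chosen with earlier results of these data known. Levels per kilobase and protein identity were planned, but transcript lengths and proteins were not used here. Cyb5a was not matched by symbol.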

Additional observations from a re-analysis of the deposited data

Results flagged for a closer look

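The change from E14 to E16 differed between small intestine and hindstomach for 8 P450 genes by the test of the difference in edgeR. This is 12.5% of the 64 tested, where 13.1% of all genes were called, so the share is near the background. Between 3 and 7 were called when 1 library was left out, and more when the compared groups were fitted alone. Of the 8, 7 had more than 3 counts summed over the libraries of every group. The log2 differences, small intestine minus hindstomach, were 4.53 for Cyp2c70, 3.14 for Cyp2j6, -1.34 for Cyp2s1, -1.89 for Cyp2d22, -2.79 for Cyp2c65, -4.01 for Cyp27a1 and -5.84 for Cyp1b1. Mesenchyme markers were uneven between these organs at E16, at 7910 to 8140 CPM in hindstomach and 1360 to 1480 in small intestine, and their part was not tested.

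The change against WT differed between the E15-labelled and the E13-labelled libraries for 28 P450 genes (43.8% of 64, where 37.9% of all genes were called). Of these, 16 had more than 3 counts summed over the libraries of every group. The log2 differences, E15 minus E13, were 8.51 for Cyp2c70 and 2.35 for Cyp20a1 on the higher side. The lower side held the fatty acid genes Cyp4a10 (-9.75), Cyp4b1 (-9.6), Cyp4v3 (-9.11), Cyp4f14 (-8.91), Cyp4f16 (-5.7), Cyp4f13 (-3.06) and Cyp2j6 (-2.17). It also held Cyp2c55 (-9.43), Cyp2c66 (-8.78), Cyp2c65 (-7.19), Cyp3a13 (-6.01), Cyp2d22 (-4.79), Cyp2d26 (-4.6) and Cyp27a1 (-3.75). The 2 WT stages used as references differ strongly in the same genes, so a difference of this kind contains the step from E16 to E18.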

How the results depend on the processing

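Of 236 values of genes named by the size rule, RLE scaling kept the call of all (outside them it lost Cyp2j6, forestomach against hindstomach, and Cyp4f13, E10), no filter lost 2, one fit of all 31 libraries 12 and DESeq2 34 of those with an adjusted p. Fitting the compared groups alone lost 12 and kept 193 named calls and moved 3 counts by over 1.5 times, from 13 to 0 for small intestine E14 against E12, from 25 to 42 for the E15-labelled libraries against E18, and from 8 to 18 for the difference between intestine and hindstomach. Without 1 library the counts were 18 to 21 (intestine against forestomach), 13 to 17 (against hindstomach), 8 to 12 (forestomach against hindstomach), 5 to 19 (E14 against E12), 14 to 18 (E16 against E14), 30 to 32 (E18 against E16), 8 to 13 (hindstomach) and 11 to 13 (forestomach) E16 against E14, 27 to 31 (E10), 34 to 35 (E13 against E16), 17 to 19 (E13 against E18), 13 to 17 (E15), 11 to 19 (adult), 3 to 7 and 25 to 28 (differences of changes). Direction reversed for Cyp26b1, intestine against forestomach (-8.08 to 0.06 without 1 library, 0.06 without E16 forestomach replicate 2), and Cyp2c44, E14 against E12 (-4.25 to 0.77, 0.77 without E12 small intestine replicate 1). Another scaling moved the median of all genes by over 0.1 in 7 comparisons, at most 0.26 for forestomach E16 against E14 under RLE. The replicate numbers did not pair the libraries (correlations of deviations from -0.02 to 0.02 in embryos and -0.15 in the adult), and a replicate block lost 9 of 236 named calls and gave, for example, 35 called genes for E18 against E16 and 16 in the adult. Genes below about 1 CPM rest on few counts.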
